A study of Mus musculus with 16 samples.

Results

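Nkx2-1, Rax, Avp, Oxt and Col25a1 were followed in pituitary RNA from 16 female mice. They are 5 of the 17362 genes with deposited values and 5 of the 14345 whose mean over the 16 mice reached 1, and they were chosen by symbol, since Nkx2-1 marks the lineage in which the Cre acts and the other genes were expected to mark the neural (posterior) lobe. All mice were 27 weeks old, on a mixed CD-1;129P2 background, and all carried the floxed Esr1 allele (Esr1fl/fl), with 4 mice in each group. Controls had Esr1fl/fl alone, and Esr1Nkx2-1Cre mutants also had a Cre driven from Nkx2-1, so that Esr1, the gene for oestrogen receptor alpha, was deleted in every cell with a history of Nkx2-1 expression, in the brain as well as in the gland. Each genotype was fed either chow (standard diet, SD) or, for the last 17 weeks, a high-fat diet (HFD). The labels name the tissue as the pituitary gland and do not divide it into lobes, so each value is a level over everything that was dissected. Values are normalized expression per gene in a unit that is not named in the sources used here, and are referred to below as units. They look scaled by transcript length and by library, and the read estimates below assume this.

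The neural lobe is an outgrowth of the hypothalamus and not of the oral ectoderm that forms the anterior and intermediate lobes. Vasopressin (from Avp) and oxytocin (from Oxt) are made by magnocellular neurons whose cell bodies lie in the hypothalamus and whose axons end in the neural lobe, and transcripts of both genes travel into those axons. Nkx2-1 and Rax are homeobox genes of the ventral forebrain that are needed to form the hypothalamus and infundibulum, and both stay on in pituicytes, the glia of the neural lobe. Col25a1 encodes a transmembrane collagen made by neurons and is the least tied of the 5 to the neural lobe.

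Avp and Oxt are neighbours on chromosome 2 of GRCm38, Avp on the minus strand (chr2:130580620-130582554) and Oxt on the plus strand (chr2:130576173-130577054), with 3565 bp between the 2 gene ends. Each has 3 exons and 1 annotated transcript. Nkx2-1 lies at chr12:56531958-56536908 on the minus strand, and Col25a1, with up to 38 exons, at chr3:130131501-130599877 on the plus strand. Nkx2-1 and Rax each overlap a gene on the opposite strand (Gm26973 and Raxos1). The use of strand in counting is not stated in the sources used here, so reads of the partners may not have been told apart.

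The coding bases of vasopressin and oxytocin, the 9-residue hormones cleaved from the Avp and Oxt products, are shown because they are where the pair differs. They differ at 5 of 27 bases, which are in capitals, 5′ to 3′ on the coding strand.
Avp: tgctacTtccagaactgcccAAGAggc
Oxt: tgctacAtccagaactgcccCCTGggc

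Further along, the 2 coding sequences (507 bases in Avp, 378 in Oxt) share a run of 127 identical bases within the neurophysin part, the carrier cleaved from each hormone. It is shown because reads that fall inside it fit both genes, so that part of a low Avp or Oxt value could come from its neighbour.
Avp and Oxt: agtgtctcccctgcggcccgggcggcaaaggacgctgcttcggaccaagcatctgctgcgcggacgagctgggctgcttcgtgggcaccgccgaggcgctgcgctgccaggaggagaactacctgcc
Over 271 bp the 2 transcripts were 91.5% identical, and no other gene reached 90% identity with either over 100 bp. Nkx2-1 had such matches with 13 other genes, Rax with 1 and Col25a1 with 55.

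The RefSeq promoters (GRCm38.p6, 250 bases before to 50 after the start) of the pair and of Col25a1 are shown because the pair was low in the same 2 libraries and Col25a1 differed between genotypes. Capitals mark GGTCA or its complement, the half-site letters bound by several nuclear receptors, in Oxt, and ATGCTAAT in Col25a1. ATGCTAAT was picked after the sequence had been seen and was not tied here to any factor, so its share among promoters is a description.
Oxt, chr2:130575919-130576218, plus strand: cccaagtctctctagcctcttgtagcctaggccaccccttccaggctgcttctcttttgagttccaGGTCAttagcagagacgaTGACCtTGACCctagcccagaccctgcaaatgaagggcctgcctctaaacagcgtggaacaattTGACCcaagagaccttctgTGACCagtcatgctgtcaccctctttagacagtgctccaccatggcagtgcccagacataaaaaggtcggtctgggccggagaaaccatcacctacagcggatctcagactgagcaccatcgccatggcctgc
Avp, chr2:130582539-130582838, minus strand: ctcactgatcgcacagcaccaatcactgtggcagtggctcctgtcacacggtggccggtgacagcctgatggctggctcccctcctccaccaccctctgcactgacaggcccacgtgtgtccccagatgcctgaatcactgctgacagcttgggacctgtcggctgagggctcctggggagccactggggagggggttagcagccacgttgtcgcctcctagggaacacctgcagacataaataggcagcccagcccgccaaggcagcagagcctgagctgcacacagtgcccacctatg
Col25a1, chr3:130180595-130180894, plus strand: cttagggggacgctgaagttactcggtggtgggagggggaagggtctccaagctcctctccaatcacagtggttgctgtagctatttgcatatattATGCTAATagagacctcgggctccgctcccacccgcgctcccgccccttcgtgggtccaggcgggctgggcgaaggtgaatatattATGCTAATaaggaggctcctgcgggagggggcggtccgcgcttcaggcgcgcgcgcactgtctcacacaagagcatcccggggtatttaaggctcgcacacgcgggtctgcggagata
The Oxt window held 5 matches to GGTCA on either strand, the Avp window 0 and the Nkx2-1 window 1. Of 32851 promoters of this length, 40.5% held at least 1. The oestrogen response element palindrome (GGTCA, 3 free bases and the complement of GGTCA) was in none of these windows and in 0.07% of all promoters. The Col25a1 window held ATGCTAAT at 2 places, starting at -154 and -68 from the RefSeq start, against 0.919% of all promoters with at least 1. Of the 5 genes, 4 had a promoter in the table. The RefSeq start of Col25a1 lies inside the longer gene span given above. These are letter matches only.

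Esr1, the deleted gene, was read first. Its level in the whole gland also covers cells outside the Nkx2-1 lineage, so it was not a test of the labels. Esr1 stood at 40.6, 46.7, 39.4 and 29.0 units in the 4 control mice on SD (P356, P358, P359 and P383). The mutants on SD had 10.02, 22.2, 20.5 and 21.8 (P357, P381, P382 and P384), all below every control on SD. On HFD the controls had 23.6, 43.4, 42.7 and 39.6 (P385, P390, P391 and P392), and the mutants had 33.4, 27.9, 33.0 and 21.6 (P339, P341, P387 and P388), so the groups overlapped. Esr1 was lower in mutants on SD by limma (log2 fold change -1.09, SE 0.25, adjusted p = 0.0409) and was not called on HFD (-0.34, SE 0.25, adjusted p = 0.696). Without P357 and P392, the libraries described next, it was -0.82 on SD (SE 0.21, adjusted p = 0.0374) and -0.30 on HFD (SE 0.21, adjusted p = 0.456). Which exons the values cover is not stated in the sources used here.

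Libraries P357 (labelled mutant on SD) and P392 (labelled control on HFD) stood apart from the other 14. Group means, fold changes and ratios are given below with and without them, and correlations only without them. Both libraries were picked with earlier results of these data known, so p-values without them are descriptions. limma's array weights, which fall as a library departs from its group, were 0.152 for P357 and 0.378 for P392, and between 0.532 and 2.17 for the rest. The values summed to 908900 to 1081000 per library in 15 mice and to 1336000 in P357. P392 also went against its label at several genes that separated the genotypes. Slc5a5, the sodium-iodide symporter, was 19.0 units in P392, between 0.473 and 0.974 in the other controls on HFD and between 7.41 and 17.0 in the mutants on HFD. Esr1 in P392, 39.6, lay within the range of the other controls.

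Avp was listed at 0 in both libraries. In controls on SD it stood at 6.23, 2.58, 7.30 and 11.9 units (P356, P358, P359, P383). Mutants on SD had 0, 2.07, 7.52 and 4.09 (P357, P381, P382, P384). Controls on HFD had 9.64, 6.99, 10.2 and 0 (P385, P390, P391, P392), and mutants on HFD had 1.90, 7.41, 6.91 and 5.19 (P339, P341, P387, P388). P357 and P392 were the only libraries with Avp listed at 0, and all 4 groups overlapped. Judged by the size of single reads in genes with 1 transcript, the other 14 libraries held about 8.62 to 68.4 Avp reads. With 3 reads in the library as the limit that a count of 0 allows, Avp was at least 6.16-fold lower in P357 than the median of the other 3 mutants on SD. It was at least 14.9-fold lower in P392 than the median of the other 3 controls on HFD. These limits cover counting error only.

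Oxt, the more abundant of the pair, was low in the same libraries without reaching 0. It stood at 14.3, 20.6, 21.8 and 29.0 units in controls on SD and at 0.792, 32.5, 35.1 and 28.5 in mutants on SD, in the same order of mice. Controls on HFD had 24.0, 25.7, 15.7 and 2.10, and mutants on HFD had 16.6, 36.7, 27.2 and 33.7. P357 held about 3.06 Oxt reads, 41.0-fold under the median of the other 3 mutants on SD (95% exact Poisson interval 14.3 to 203 for counting error in P357). P392 held about 8.50 reads, 11.5-fold under the median of the other controls on HFD (6.17 to 28.2). Leaving those libraries aside, Oxt ranged 2.57-fold from lowest to highest over 14 mice and Avp 6.26-fold.

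Rax, a homeobox gene of the infundibulum and pituicytes, was also listed at 0 in these libraries and in no other. It lies on the minus strand of chromosome 18 (chr18:65928277-65939787). Controls on SD had 1.60, 3.43, 3.24 and 2.69 units and mutants on SD had 0, 1.80, 2.03 and 1.05. Controls on HFD had 1.89, 1.75, 1.92 and 0, and mutants on HFD had 0.834, 1.78, 1.76 and 2.21. The highest 3 values of Rax were all in controls on SD, and P356 of that group lay within the range of the other groups. Rax has 7 annotated transcripts, so no read limit could be set for its zeros.

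Nkx2-1, the gene whose lineage carried the deletion, was the lowest of the 5, with a mean above that of only 3.03% of the genes tested. Controls on SD had 1.54, 1.56, 2.32 and 1.51 units and mutants on SD had 0.414, 1.23, 0.897 and 1.34. Controls on HFD had 1.70, 1.303, 0.997 and 0, and mutants on HFD had 1.39, 1.46, 1.19 and 1.10. P357 held 33.7% of the median of the other mutants on SD, and P392 was the only library at 0. On SD every control was above every mutant, and on HFD the mutants lay inside the range of the controls.

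Col25a1 did not follow the other 4 genes, and this goes against its grouping with neural lobe genes. It stood at 11.9, 6.40, 6.06 and 7.43 units in controls on SD and at 13.9, 17.4, 15.7 and 16.6 in mutants on SD. Controls on HFD had 9.40, 7.77, 7.49 and 15.3, and mutants on HFD had 17.8, 14.6, 17.4 and 18.2. In P357, where Avp and Rax were at 0, Col25a1 held 83.8% of the median of the other mutants on SD. In P392 it was 197% of the median of the other controls on HFD and lay within the range of the mutants. The 8 mutants and P392 made up the 9 highest of the 16 libraries.

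**Figure D1:**
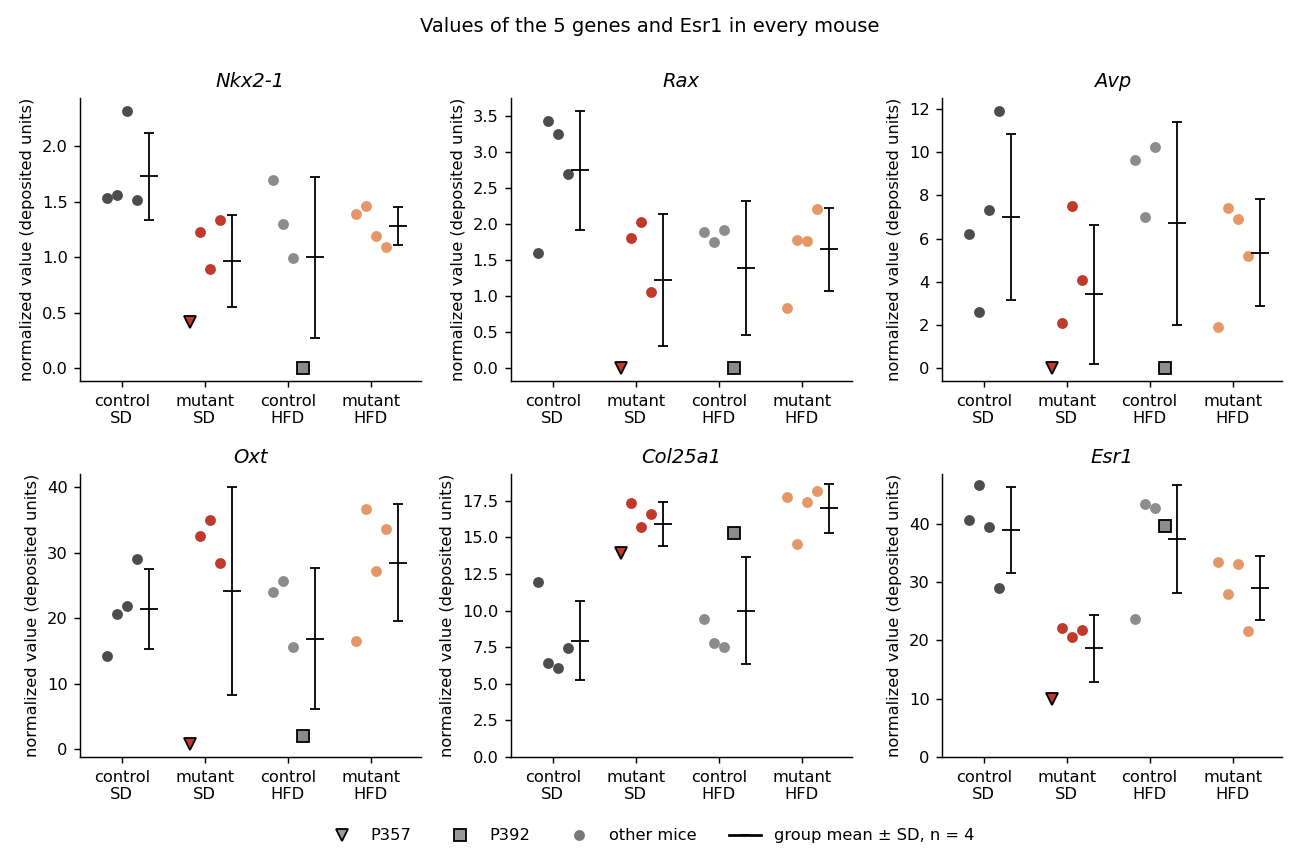
Normalized values (units, vertical axes) of the 5 genes and of Esr1 in each mouse by group (horizontal axis), with the group mean ± SD (n = 4) beside the points, P357 as a triangle and P392 as a square. Avp and Rax are at 0 in P357 and P392 alone, while Col25a1 stands at 13.9 and 15.3 in them. The group mean of Col25a1 is higher in the mutants on both diets. On HFD P392 overlaps the mutants and the difference is not called.

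As group means over all mice, Nkx2-1 ran from 1.73 ± 0.391 units in controls on SD (SD, n = 4 here and below) through 1.28 ± 0.169 in mutants on HFD and 1.00 ± 0.726 in controls on HFD to 0.970 ± 0.416 in mutants on SD. Rax had the same order, from 2.74 ± 0.822 through 1.65 ± 0.581 and 1.39 ± 0.93 to 1.22 ± 0.915. Avp ran from 7.01 ± 3.84 in controls on SD through 6.71 ± 4.69 in controls on HFD and 5.35 ± 2.49 in mutants on HFD to 3.42 ± 3.20 in mutants on SD. Oxt was highest in mutants on HFD (28.5 ± 8.87), then mutants on SD (24.2 ± 15.8), controls on SD (21.4 ± 6.06) and controls on HFD (16.9 ± 10.8). Neighbours in each of these orders overlapped, except that every Nkx2-1 value in controls on SD was above every one in mutants on HFD. Col25a1 stood at 17.0 ± 1.66 in mutants on HFD and 15.9 ± 1.49 in mutants on SD, which overlapped. It stood at 9.99 ± 3.64 in controls on HFD and 7.96 ± 2.72 in controls on SD, which also overlapped. Leaving out P357 and P392 changes the means of mutants on SD and controls on HFD only (n = 3 each). In that order of groups they became 1.16 ± 0.230 and 1.33 ± 0.353 for Nkx2-1 and 1.63 ± 0.511 and 1.85 ± 0.0920 for Rax. Avp became 4.56 ± 2.75 and 8.95 ± 1.72, Oxt 32.0 ± 3.31 and 21.8 ± 5.34, and Col25a1 16.6 ± 0.834 and 8.22 ± 1.04. Controls on HFD then had the highest mean of Avp, and mutants on SD the highest of Oxt and the lowest of Nkx2-1, Rax and Avp.

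The first question was whether genotype changed the 5 genes on SD. Col25a1 was the single member called, 2.0-fold higher in mutants by the ratio of group means. limma on log2(value + 0.5) across all 14345 genes gave a log2 fold change of 1.00 (SE 0.22, adjusted p = 0.0321), and 264 genes, 1.84% of those tested, were called in this comparison. Leaving out P357 and P392 gave 1.06 (SE 0.18, adjusted p = 0.00483), with 6.7% of genes called. The call was lost when any 1 of P358, P359, P383, P381, P382 or P384 was left out, with log2 fold changes between 0.89 and 1.01 and adjusted p between 0.0680 and 0.107. In those fits 33 to 57 of the 14345 genes were called. The Col25a1 call was kept without either of the other mice on SD, P356 (826 genes called) and P357 (134 genes called). It was also lost with a term for the 2 ranges of animal numbers described below (0.94, adjusted p = 0.0545), where 298 genes were called.

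The other 4 genes were not called on SD. Nkx2-1 had a log2 fold change of -0.64 (SE 0.37, adjusted p = 0.350), and was the other gene whose groups did not overlap there. That made 2 of the 5, against 10.6% of all genes tested on SD (18.6% without P357 and P392). The exact two-sided permutation test gave p = 0.0286 for both Nkx2-1 and Col25a1, the smallest that 4 against 4 allows, and 0.286 after Benjamini-Hochberg adjustment over the 20 tests of 5 genes in 4 comparisons. Rax had -1.11 (SE 0.53, adjusted p = 0.260) and Avp -1.35 (SE 0.92, adjusted p = 0.423). With both libraries left out these became -0.43 for Nkx2-1, -0.60 for Rax and -0.55 for Avp, with adjusted p of 0.236, 0.220 and 0.533 by limma. Oxt turned from -0.56 (SE 0.89, adjusted p = 0.762) to 0.61 (SE 0.27, adjusted p = 0.199) when those libraries were left out.

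On HFD no member was called over all mice, and none of the 14345 genes was (0.0%; 1461 at an unadjusted p under 0.05, by limma). Col25a1 was 1.70-fold higher in mutants as a ratio of means, with a log2 fold change of 0.79 (SE 0.22, adjusted p = 0.233) and mutants that overlapped the controls only at P392. Without P357 and P392 it was 1.01 (SE 0.18, adjusted p = 0.00499), or 2.07-fold, with 7.42% of all genes called. It was called as well without P392 alone (adjusted p = 0.00601), where 653 of the 14345 genes were called. Without both libraries its groups did not overlap, as in 19.7% of all genes, against 5.3% with every mouse kept. P392 was the only control that overlapped the mutants, so leaving it out fixed that result in advance.

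Nkx2-1, Rax and Avp changed sign on HFD with the same 2 libraries. Over all mice their log2 fold changes were 0.44 (SE 0.37), 0.38 (SE 0.53) and 0.24 (SE 0.92), and without P357 and P392 they were -0.03, -0.18 and -0.81. Oxt had 1.12 (SE 0.89, adjusted p = 0.727) and then 0.35 (SE 0.27, adjusted p = 0.493). Each of these intervals held 0, and the 95% interval for Avp without the pair of libraries ran from -1.88 to 0.25. For these 4 genes P357 is the lowest of the mutants on SD and P392 the lowest of the controls on HFD, so keeping them moves the genotype effect in opposite directions on the 2 diets.

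**Figure D2:**
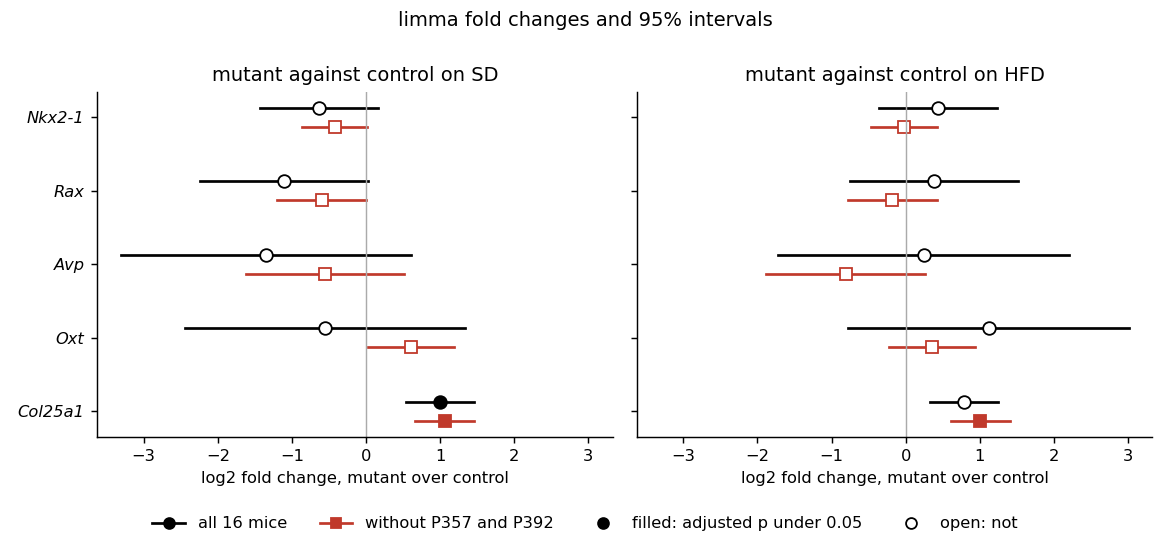
limma log2 fold changes of mutant over control (horizontal axis) with 95% intervals for the 5 genes on SD (left) and HFD (right), over all 16 mice (black circles) and without P357 and P392 (red squares). Filled symbols have an adjusted p under 0.05, which Col25a1 reaches in 3 of its 4 fits and no other gene in any.

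Whether HFD changed the genes within a genotype was asked next. No member was called in mutants or in controls, where 0.0% of genes were called over all mice, with 717 and 592 at an unadjusted p under 0.05 by limma. In mutants the log2 fold changes of HFD over SD were 0.33 for Nkx2-1, 0.51 for Rax, 1.02 for Avp, 0.94 for Oxt and 0.09 for Col25a1. Without P357 and P392 they were 0.11, -0.00351, 0.22, -0.22 and 0.03. In controls they were -0.75, -0.98, -0.58, -0.73 and 0.30 in the same order of genes, and -0.29, -0.42, 0.48, 0.04 and 0.09 without P357 and P392. For Col25a1 the 95% interval of the diet effect over all mice was -0.37 to 0.55 in mutants and -0.16 to 0.76 in controls.

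The interaction, the difference between the genotype effects on HFD and on SD, was not called for any member (0.0% of genes called, 602 at an unadjusted p under 0.05 by limma). It was 1.08 (SE 0.53) for Nkx2-1, 1.49 (SE 0.76) for Rax, 1.60 (SE 1.31) for Avp and 1.67 (SE 1.26) for Oxt, each with an adjusted p of 0.924. Leaving out P357 and P392 it was 0.40, 0.42, -0.26 and -0.26. For Col25a1 it was -0.21 (SE 0.31, adjusted p = 0.947) and -0.06 without them, with an interval of -0.62 to 0.51.

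Ratios within a library show whether 2 genes moved by different amounts. Oxt to Avp, on the log2 scale, was 1.13, 2.77, 1.52 and 1.25 in controls on SD, and 3.68, 2.15 and 2.66 in the mutants on SD other than P357. On HFD it was 1.27, 1.80 and 0.596 in the controls other than P392 and 2.83, 2.23, 1.90 and 2.59 in the mutants. The mutants were higher by 1.16 on SD (exact p = 0.114) and by 1.16 on HFD (exact p = 0.0286, the smallest possible), which gave 0.381 and 0.143 after adjustment over 20 tests, so neither passed. On HFD the 3 controls and 4 mutants did not overlap. With all mice kept, where the ratios of P357 (1.37) and P392 (2.38) rest on the pseudocount, the differences were 0.80 (exact p = 0.257) and 0.88 (exact p = 0.114).

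Oxt to Rax was higher in mutants by 1.20 on SD and 0.53 on HFD without P357 and P392 (exact p = 0.0286 in both, adjusted 0.143), and by 0.56 and 0.74 with them. Col25a1 to Rax was higher in mutants on SD by 2.11 over all mice and 1.66 without the pair, and on HFD by 0.41 and 1.18. None of the 20 ratio tests passed after adjustment, with or without these libraries. Nkx2-1 to Rax differed by at most 0.47 in size in any of the 4 comparisons over all mice, with exact p of at least 0.314, and by at most 0.17 without the pair, with exact p of at least 0.629.

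Across the 14 libraries other than P357 and P392, with group means removed, no pair of the 5 genes correlated after adjustment over the 10 pairs. Rax and Oxt had the highest correlation (Pearson r = 0.69, permutation p = 0.00654, adjusted 0.0654; Spearman rho = 0.39, permutation p = 0.170), and r was 0.24 without the 2 mice farthest from the median of Rax, so the relation rests on those mice. Avp and Oxt had r = 0.49 (permutation p = 0.0728, adjusted 0.243) and rho = 0.56 (permutation p = 0.0369, adjusted 0.369), and they share the 127 identical bases above. Col25a1 and Rax had r = -0.58 (permutation p = 0.0330, adjusted 0.165) and rho = -0.42 (permutation p = 0.137), with r = -0.23 without the 2 farthest. Nkx2-1 had r between -0.17 and 0.10 with the other 4.

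**Figure D3:**
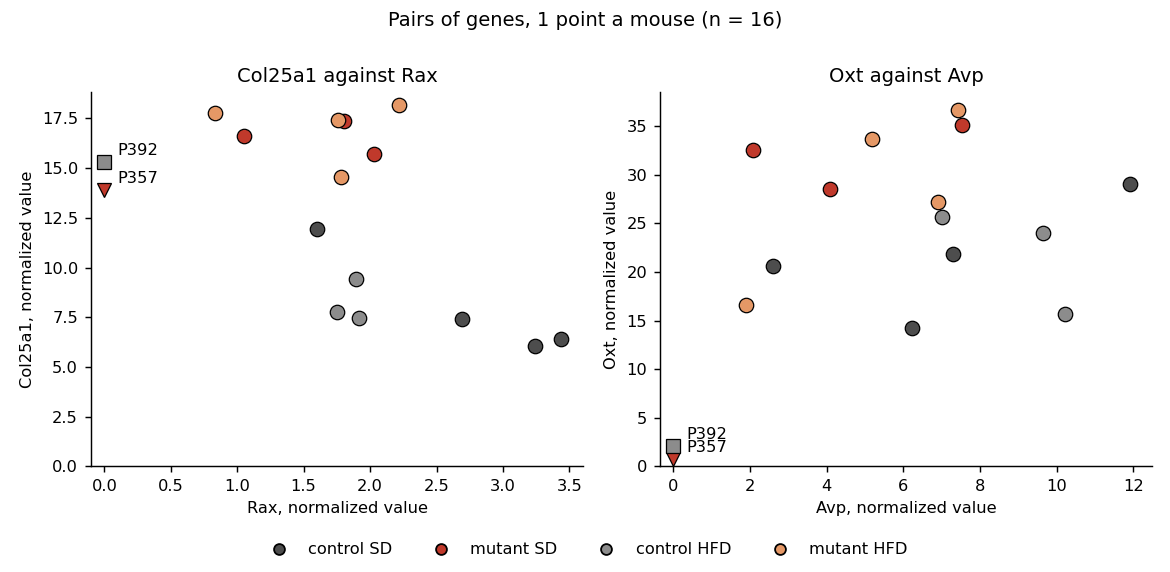
Col25a1 against Rax (left) and Oxt against Avp (right), in normalized units, with 1 point for each of 16 mice coloured by group. P357 and P392 lie at 0 for Rax and Avp on the horizontal axes, near 0 for Oxt (0.792 and 2.10), and among the mutants for Col25a1.

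The genes most like each of the 5 over the 16 libraries were found by the root mean square (RMS) difference of centred log2 profiles. For Avp they were Gpr6 (0.577), Gulo (0.664), Oacyl (0.764), Gm45380 (0.765) and Oxt (0.775), against a median of 1.40 over the genes tested. For Oxt they were Gpr6 (0.474), Oacyl (0.629), Gulo (0.649), Pax7 (0.660) and Esm1 (0.664), against 1.34. Of these, Oacyl was on the list of melanotroph genes for Avp, and Oacyl and Pax7, the factor that sets melanotroph identity, for Oxt. Gpr6 was 0.0815 units in P357, 0.313 in P392 and 4.44 to 9.04 in the other libraries. These orders carry no test. In an alternative added after seeing the data, without P357 and P392, none of the 5 nearest genes was shared for either (0 of 5), and Oxt ranked 9143rd for Avp.

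For Rax the nearest were Fndc3c1 (0.327), Grik3 (0.372), Sparcl1 (0.399), Col23a1 (0.413) and Kcnh3 (0.414), and Nkx2-1 came 24th (0.483). For Nkx2-1 they were Mcub (0.283), Gpc3 (0.309), Cdc25b (0.309), Islr (0.332) and Rtl10 (0.344), with Rax 737th. For Col25a1 they were Gas6 (0.190), Dlgap1 (0.191), Rgs7bp (0.192), Slc7a7 (0.193) and Tspan13 (0.205), and the other 4 genes ranked between 13307th and 14283rd of 14344. The mean of the 5 profiles was most like Col23a1 (0.178), Scn7a (0.272), Wnt5b (0.315), Gldc (0.328) and Ism2 (0.335). Col23a1, another transmembrane collagen, was 0.376 in P357, 0.263 in P392 and 2.44 to 4.23 elsewhere. With both libraries left out, Col25a1 shared 3 of its 5 nearest genes (Gas6, Slc7a7 and Dlgap1), and Rax, Nkx2-1 and the mean profile shared 0.

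Marker lists were then read in the 2 libraries. Of the 5 genes, 4 were below the range of the other 14 libraries in both P357 and P392, against 3.79% of all genes tested (2.24% were above it in both). The libraries were singled out by these same genes, so that count is a description. The lists were chosen with earlier results of these data known, so the list counts below are descriptions too. Of 5 melanotroph genes 4 were below (Pax7, Oacyl, Pcsk2 and Pomc). Pomc, the precursor of melanocyte-stimulating hormone and corticotropin, was 1654 units in P357, 3443 in P392 and 11230 to 42040 elsewhere. Oacyl was 1.61, 9.23 and 28.1 to 91.0. The list's median log2 difference from the other 14 libraries was -3.21 in P357 and -2.11 in P392, against medians over all genes of -0.06 and 0.01. Pax7, the list's defining factor, was 0.132 in P357 and 1.16 in P392, against 4.58 to 13.5 elsewhere. In a whole gland, fewer cells of a type and less RNA per cell cannot be told apart.

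Of 14 neural lobe glia and infundibulum genes tested, 3 were below in both libraries (Lhx2, Scn7a and Vax1), and the list's median difference was -0.88 in P357 and -0.22 in P392. Scn7a, a sodium channel of glia, was 0.286 in P357, 0.173 in P392 and 2.54 to 4.05 elsewhere. Vax1, a ventral forebrain homeobox gene, was 0.322, 1.31 and 3.13 to 15.8. Lhx2, a factor needed for pituicyte formation, was 0 in P357, 0.583 in P392 and 0.664 to 6.85 elsewhere. Other genes of the list went the other way, and the differences ran from -3.25 to 0.32 in P357 and from -2.40 to 1.04 in P392. The list's summed level, 201 and 198 units, was just under the 206 to 261 of the other libraries. That sum is set mostly by the list's most abundant genes, Six6 among them, and says little about the rest. Six6, which the anterior pituitary also uses, was 29.2 and 42.9 against 27.4 to 45.1.

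Among 7 magnocellular and axon genes tested, Pdyn, whose product dynorphin is stored with vasopressin, was the one below in both libraries, at 3.49 and 5.81 against 6.38 to 14.5. None of 5 myelin and Schwann cell genes was below. Of 6 anterior lobe hormone genes, none was below and 2 were above in both (Prl and Cga), with the list summing to 603400 units in P357 and 483900 in P392 against 329600 to 475600 elsewhere. All genes together summed to 1336000 units in P357 and 1081000 in P392, against 908900 to 1077000 elsewhere. The hormone levels were not scaled to these totals. Of 5 endothelial genes, Emcn was above in both. The part of these lists in the genotype and diet results was not tested.

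**Figure D4:**
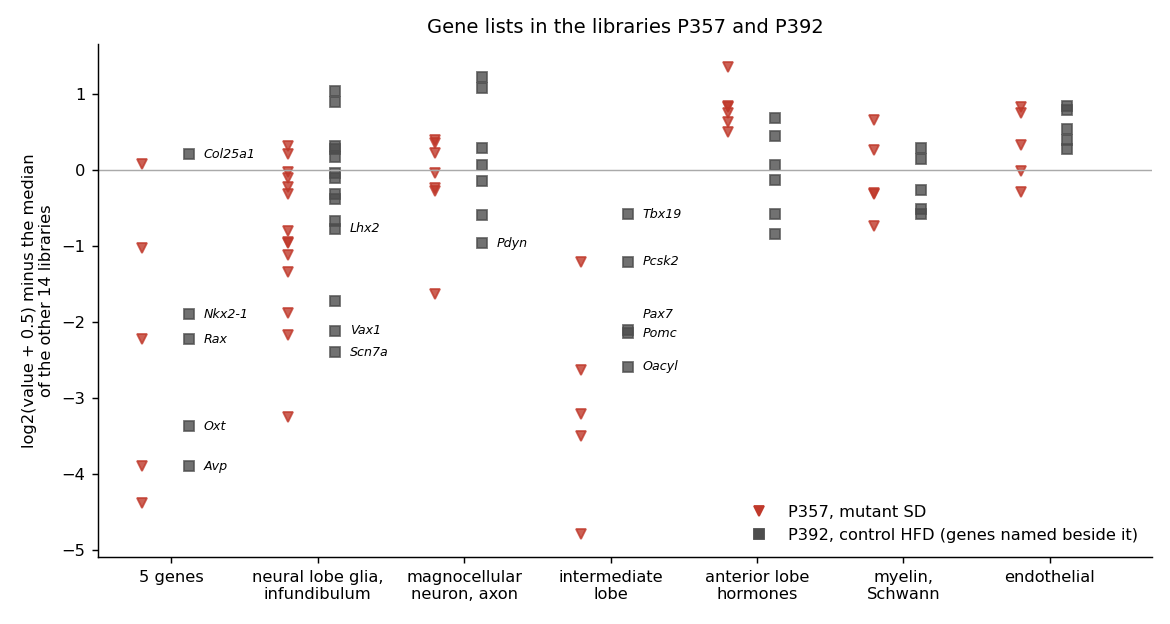
Difference of log2(value + 0.5) from the median of the other 14 libraries (vertical axis) for each tested gene of 7 lists (horizontal axis) in P357 (red triangles) and P392 (grey squares). Avp, Oxt and the melanotroph gene Oacyl are the lowest plotted genes in both libraries, Col25a1 lies near 0 (0.07 and 0.21), and the anterior lobe hormones lie above 0 in P357 and on either side of it in P392.

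The lists gave few calls between groups. Over all mice none of the 14 neural lobe glia genes, 7 magnocellular and axon genes, 5 melanotroph genes, 5 processing enzymes, 3 receptor and breakdown genes, 5 myelin genes, 6 anterior hormone genes, 5 endothelial genes, 5 folliculostellate and stem cell genes or 2 other hypothalamic genes passed in any of the 5 comparisons. Their medians on SD ran from -0.81 for the melanotroph genes to 0.61 for the endothelial genes, beside -0.01 over all genes, and on HFD the same 2 lists were at 0.60 and 0.51, beside 0.02. The melanotroph median was -0.19 on SD and -0.02 on HFD without P357 and P392. Slc5a5, the 1 gene tested of the thyroid and lung list, rose in mutants on SD (log2 fold change 3.37, SE 0.69, adjusted p = 0.0284) and was not called on HFD (2.29, SE 0.69, adjusted p = 0.263). With both libraries left out it rose on both diets (3.28, adjusted p = 6.08e-05, and 3.32, adjusted p = 5.27e-05, SE 0.31). P392 lay above the mutants on HFD at Slc5a5, so its removal favoured the HFD call, and these p-values are descriptions.

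Some list genes were also called between genotypes when P357 and P392 were left out. In those fits 6.7% of all genes tested were called on SD and 7.42% on HFD. P392 lay among or above the mutants on HFD at several of the genes below, so its removal favoured their HFD calls. The p-values of these fits are descriptions. Oxtr, the oxytocin receptor gene and target of the Oxt product, was 0.3 to 8.89 units in controls on SD and 9.86 to 14.5 in mutants. On HFD it was 0.721 to 4.03 in controls and 7.56 to 20.7 in mutants. It rose in mutants on both diets, by 2.80 on SD (SE 0.71, adjusted p = 0.0329) and 2.94 on HFD (SE 0.71, adjusted p = 0.0237), and with all mice kept was not called (2.40, adjusted p = 0.151, and 1.99, adjusted p = 0.462). In P392 it was 28.1, above every other library. The neurofilament genes Nefl and Nefm rose on both diets, by 0.91 and 1.11 on SD and 1.38 and 1.03 on HFD, with adjusted p between 9.27e-04 and 0.0150. Their levels in P392, 10.8 and 20.9, were above those of every other control. Nefl and Nefm were the only 2 called of the 7 magnocellular and axon genes, whose median log2 fold change was 0.07 on SD and 0.56 on HFD. Of the endothelial genes 4 of 5 rose on SD and all 5 on HFD, the junction gene Cdh5 by 0.75 (adjusted p = 0.00314) and 0.78 (adjusted p = 0.00185). Mbp of the myelin list and Aldh1a2 of the folliculostellate list rose on SD only, and Lhb of the anterior hormones fell on HFD only. None of the neural lobe glia, melanotroph or processing enzyme genes passed in these fits.

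The animal numbers fall into a lower range (P339 to P359) and an upper range (P381 to P392), which the labels do not explain. Of the mice on SD, P357 and 3 controls were in the lower range and 1 control with 3 mutants in the upper, and Col25a1 was higher in mutants by 0.80 and 1.11 (log2) within them. On HFD the lower range held mutants alone, and within the upper range, with 4 controls and 2 mutants, the difference was 0.86. Oxt differed by -3.88 in the lower range, where P357 is the only mutant, and by 0.13 in the upper range on SD. Avp and Rax were different in the same direction in both ranges on SD, at -3.45 and -1.44 for Avp and -2.65 and -0.61 for Rax, with a single mouse on 1 side each time.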

How the data were processed

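Barcoded libraries, 1 per mouse, were made with the NEBNext Ultra II kit and run on a NovaSeq by Novogene. Reads were quantified with Kallisto in gene mode (mm10, per the labels) and tested with Sleuth. Tool versions and strand use are not given in the sources used here. The deposited values are a normalized signal per gene, never negative, and not counts, so limma was used in place of a count model. Depth is known only roughly, from the step between low values of 1457 genes with 1 transcript, of which 81.3% to 90.6% per library were within 0.1 of a whole read. Samples were grouped by the genotype and diet labels.

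Values were taken as log2(value + 0.5) for genes with a mean of at least 1 and fitted with limma 3.58.1 (R 4.3.3), 1 mean per group over 16 mice and a variance trend in eBayes. P-values were adjusted over all genes (Benjamini-Hochberg, 0.05). Single values were compared by two-sided exact permutation tests and correlations by 100000 permutations (Python 3.11.15, numpy 2.4.6, scipy 1.17.1). Simulated data with known changes were used to test the limma step. Shared sequence was searched with BLAST 2.17.0, and positions are from GENCODE M21 on GRCm38. The genes and lists were chosen with earlier results of these data known. Named genes are the 5, Esr1, up to 4 of a list, and the 5 nearest profiles. The genes set beside P392's label were chosen after their values were seen. Listed genes with no values here (Sim1, Otp, Avpr1a and others) were not analysed here. Nothing in the labels says whether mice shared a litter or an extraction.

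Alternatives were no filter, a filter at a mean of 5, pseudocounts of 0.1 and 1, scaling by the median, quantiles set equal, no variance trend, array weights, fits to the compared mice alone, a term for the 2 ranges of animal numbers, and leaving out P357 with P392 or each mouse in turn.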

Additional observations from a re-analysis of the deposited data

Results flagged for a closer look

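Each gene was searched in each group of 4 for a mouse set apart from the other 3 by Dixon's criterion, 20 searches of which chance gives about 1, and 2 were found. Rax in the control on HFD P392 was 0, with the other 3 controls between 1.75 and 1.92. Nkx2-1 in the control on SD P359 was 2.32, above the other 3 at 1.51 to 1.56, which makes the highest Nkx2-1 value of the series. The search used values in units and not the log2 values of the other tests. On that scale the zeros of Avp and the low Oxt of P357 and P392 were not set apart by this criterion. The same search on log2 values was not run.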

How the results depend on the processing

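Of 260 fold changes refitted under alternatives other than leaving out 1 mouse, 245 kept their direction and their side of the threshold, and of 400 refitted without 1 mouse 9 turned sign, 6 lost a call and 1 gained a call. Of the counts of the 5 genes called, 51 of 54 and 73 of 80 were kept under the same 2 kinds of alternative, and of the ratios 46 of 60 and 134 of 160. Dropping the filter or the variance trend, fitting the compared mice alone, or leaving out a mouse outside a comparison cannot move a fold change. Those refits can move only its p-value, so part of the kept directions of the fold changes was fixed in advance. No paired analysis was possible because animal numbers are not shared between groups. The filter at a mean of 5 removes Nkx2-1 and Rax, which have no value there. Rax and Nkx2-1 have values near 1 unit and zeros, and reads were not estimated for them, so the counting error of their values is unknown. The causes of the changes below were not tested, beyond the libraries named.

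On SD the count of 1 gene called (Col25a1) became 0 with a term for the 2 ranges of animal numbers and ran from 0 to 1 over leaving out each mouse. On HFD the count of 0 became 1 (Col25a1) with array weights, 1 without P357 and P392, and ran from 0 to 1 over leaving out each mouse, being 1 without P392. With array weights Oxt on SD was 0.35 and Avp on HFD -0.15. The number of genes called on SD was 264 in the main test, 151 at a mean of 5, 961 without P357 and P392 and 2017 with array weights. On HFD it was 0, 0, 1064 and 1068. Over leaving out each mouse the number ran from 33 to 826 on SD and from 0 to 653 on HFD.

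Without P357 and P392 the signs turned for Oxt on SD (0.61), Nkx2-1 (-0.0265), Rax (-0.18) and Avp (-0.81) on HFD, Rax (-0.00351) and Oxt (-0.22) for diet in mutants, Avp (0.48) and Oxt (0.0366) for diet in controls, and Avp (-0.26) and Oxt (-0.26) in the interaction. Leaving out 1 mouse at a time gave -0.99 to 0.61 for Oxt on SD. It gave -0.0265 to 0.69 for Nkx2-1, -0.18 to 0.59 for Rax and -0.81 to 0.66 for Avp on HFD. For diet in mutants it gave -0.00351 to 0.78 for Rax and -0.22 to 1.38 for Oxt. For diet in controls it gave -0.99 to 0.48 for Avp and -1.07 to 0.0366 for Oxt. The interaction of Col25a1 ran from -0.41 to 0.00466.

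Among the ratios, Oxt to Avp for diet turned to 0.0450 in mutants with a pseudocount of 1 and to 0.32 in controls with 0.1, and Col25a1 to Rax on HFD to -0.0205 with 0.1. Without P357 and P392, Nkx2-1 to Rax (0.12), Col25a1 to Rax (0.0341) and Oxt to Rax (-0.22) turned for diet in mutants, and Avp to Rax (0.0436) on SD. Over leaving out 1 mouse, Oxt to Avp for diet ran from -0.44 to 0.33 in mutants and from -0.44 to 0.21 in controls. Nkx2-1 to Rax ran from -0.18 to 0.24 on HFD and from -0.46 to 0.12 for diet in mutants. Col25a1 to Rax ran from -0.69 to 0.0341 and Oxt to Rax from -0.22 to 0.74 for diet in mutants. Avp to Rax ran from -0.72 to 0.0517 on SD, from -0.63 to 0.0822 on HFD and from -0.0739 to 0.90 for diet in controls.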
